A study of Mus musculus with 8 samples.

Results

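The cytosolic ribosomal protein genes are the genes whose products, with the ribosomal RNAs, build the 40S and 60S subunits of the ribosome. They were chosen by gene symbol alone, as every row whose symbol was Rpl or Rps followed by a number, with or without a closing a or x, or Rplp followed by a digit. The rule found 75 of the 22520 coding genes in the table, 30 of the 40S subunit and 45 of the 60S subunit. No expression value entered the choice. All 75 genes passed the filter on low signal, and 0 of them were listed at 0 in any library.

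mRNA-seq was made from cells labelled as liver endothelial cells (ECs), from mice on the C57BL/6 background at postnatal day 14. The 4 WT libraries came from LRP1f/f; Cdh5-CreER-/- littermates and the 4 LRP1 eKO libraries from LRP1f/f; Cdh5-CreER+/- mice. Both groups carried the floxed Lrp1 alleles, and the inducible Cre driven by the endothelial Cdh5 promoter was present only in LRP1 eKO, so Cre expression and loss of Lrp1 cannot be told apart. The labels number the libraries but do not say whether each came from 1 animal, so the p-values measure the spread between libraries. The comparison asks how the mRNAs of the ribosome differ between cells labelled as ECs with and without deletion of LRP1, a large endocytic and signalling receptor.

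Lrp1 itself had mean signals of 65.5 ± 13.3 in WT and 4.41 ± 1.65 in LRP1 eKO (SD, n = 4 each), 6.74% of the WT mean. The defining endothelial genes were low for libraries labelled as endothelial. The WT and LRP1 eKO signals of Cdh5 were 1.86 ± 0.430 and 3.70 ± 1.34, and those of Pecam1, the surface antigen used to isolate the cells, were 2.09 ± 0.416 and 3.02 ± 0.911 (SD, n = 4 each). The summed signal of 10 endothelial genes ran from 46.6 to 54.5 in WT and from 68.9 to 86.3 in LRP1 eKO, against 2001 to 2312 and 1757 to 2213 for 10 stellate cell and fibroblast genes. In every library the stellate cell and fibroblast sum was thus far above the endothelial sum, which goes against the label. The share of each cell type was not tested. The depth of the libraries is unknown, since the values are normalized signals and not counts.

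Ribosomal protein mRNAs are among the most abundant in a cell, and growing cells make the subunits' proteins in matched amounts. In mammals these mRNAs begin with a 5′ terminal oligopyrimidine (TOP) motif, an unbroken run of C and T at the transcription start. The TOP motif places their translation, and in part their stability, under mTORC1 and the RNA-binding protein LARP1. Transcription of ribosomal RNA and ribosomal protein genes is also known to respond to MYC.

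Of the 75 genes, 55 had a start region among the RefSeq sequences (GRCm38.p6, the same assembly as mm10). A run of at least 8 pyrimidines within 50 bases of the annotated start was found in 47 of 55, or 85.5%, against 39.3% of all 27025 genes with a sequence and 36.7% of 9112 tested genes outside the family. The windows below belong to the genes at both ends of the range of change. A run within 50 bases of the annotated start is present at both ends, though often not at the start itself. Rpl34 to Rpl41 are the 5 genes with the largest decreases, Rps9 is among the 5 of smallest p, and Rpl38 to Rpl13a are among the 5 that changed least. Each window holds 30 bases, 5′ to 3′ on the strand of the gene, and the capitals mark the pyrimidine run within 50 bases of the start.

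Rpl34, chr3:130730330-130730359, minus strand: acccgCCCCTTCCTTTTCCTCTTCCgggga

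Rpl10a, chr17:28328572-28328601, plus strand: aagcgctctgCCTTCTTTCCggtttccgcg

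Rpl36a, chrX:134585672-134585701, plus strand: cggctctagCCTCTCTCTTTCCgagctgct

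Rpl39, chrX:37085173-37085202, minus strand: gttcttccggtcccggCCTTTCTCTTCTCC

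Rpl41, chr10:128549119-128549148, minus strand: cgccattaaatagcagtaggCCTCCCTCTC

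Rps9, chr7:3704024-3704053, plus strand: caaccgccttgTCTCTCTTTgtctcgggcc

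Rpl38, chr11:114668568-114668597, plus strand: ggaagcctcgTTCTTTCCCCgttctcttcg

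Rps23, chr13:90923142-90923171, plus strand: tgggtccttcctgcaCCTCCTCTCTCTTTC

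Rpl4, chr9:64173405-64173434, plus strand: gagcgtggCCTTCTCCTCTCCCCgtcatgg

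Rpl13a, chr7:45128722-45128751, minus strand: cgacaagaCCTCCTCCTTTCCCaggcggct

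The run spanned 20 bases in Rpl34 and 9 in Rps9, which both fell, and 15 in Rpl4 and 14 in Rpl13a, which did not pass the test. Rps4x, which also fell, had a sequence and no run of at least 8 bases in the window. The run lay across the annotated start in Rpl34, Rps9 and Rpl38. It began 2 bases after the start in Rpl13a, 17 in Rpl10a, 26 in Rpl4, 27 in Rpl36a, 35 in Rps23, 36 in Rpl39 and 40 in Rpl41. In Rps23, Rpl39 and Rpl41 it reached the edge of the searched window and may be longer. Such runs are not shown to be TOP motifs. In the 300 bases from 250 before to 50 after the start, the letters CCGGAAG on either strand, as in the sites of ETS-family factors, stood in 41.8% of the 55 ribosomal protein genes, 9.93% of all genes with a sequence and 1911 of the 9112 tested genes outside the family. The letters AAGATGG, as in YY1 sites, stood in 16.4%, 7.28% and 8.59%. TATAA on the sense strand in the 50 bases before the start stood in 7.27%, 5.89% and 2.89%. The motifs are matches of letters only.

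The ribosomal protein mRNAs were lower in LRP1 eKO as a group. All 75 had a lower mean log2 signal in LRP1 eKO than in WT, and 56 of them fell (adjusted p below 0.05, limma on log2(signal + 1), Benjamini-Hochberg over 11391 genes), while 0 rose. Adjusted p-values below come from this limma fit. The background was 22.2% of all tested genes called lower and 19.0% called higher. Among 1467 genes outside the family with a mean signal of at least 50, the background of lower calls was 27.2%. The decreases were small. The median log2 fold change over the 75 genes was −0.18, with a range from −0.51 to −0.04 and a median SE of 0.050, and the median over all tested genes was −0.01. No ribosomal protein gene fell by 2-fold or more, against a background of 0.790% of genes. In 60 of the 75 genes, every LRP1 eKO library lay below every WT library, against a background of 22.5%. For each of these 60 genes the exact two-sided permutation test over the 70 assignments of libraries gave p = 0.029. This is the smallest value it can give with 4 libraries against 4. Full separation of the groups fixes this p, so it adds nothing to the separation itself.

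The summed signal of the 75 genes was 65555, 65698, 67433 and 72762 in WT replicates 1 to 4, and 60858, 59509, 58541 and 59293 in LRP1 eKO replicates 1 to 4. The 2 groups did not overlap, and WT replicate 4 stood above the other WT libraries. The group values were 67862 ± 3376 and 59550 ± 966 (SD, n = 4 each), 12.2% lower in LRP1 eKO. These genes held 14.0% ± 0.688 of all signal in WT and 12.3% ± 0.192 in LRP1 eKO. They filled 45 to 53 of the 100 highest places in the WT libraries and 35 to 38 in the LRP1 eKO libraries. Since quantile normalization gives all libraries the same distribution of values, a change of signal here is a change of rank among genes. In bulk libraries, fewer cells rich in these mRNAs, less of them per cell and a rise of other mRNAs cannot be told apart.

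**Figure D1:**
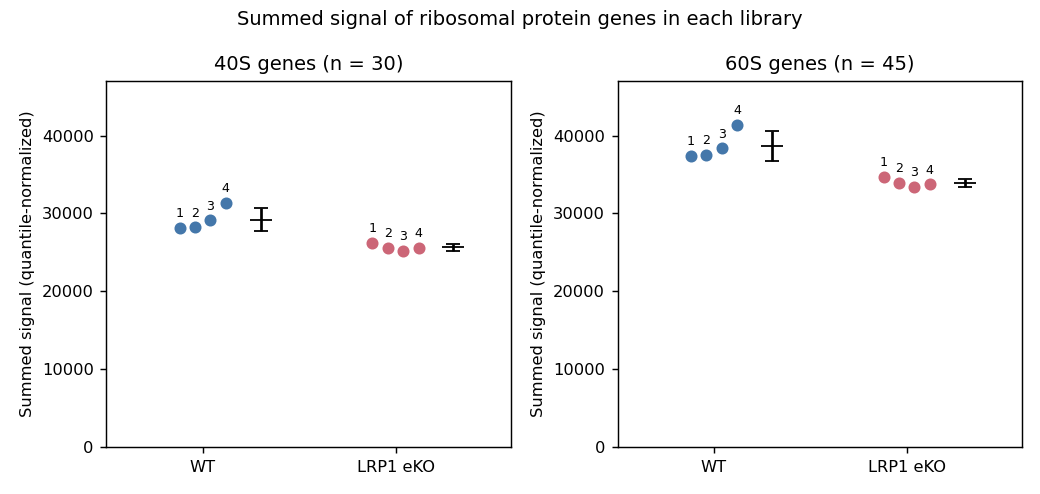
Summed quantile-normalized signal of the 30 genes of the 40S subunit and the 45 genes of the 60S subunit in each library. Points are libraries with their replicate number, and the bars give the mean ± SD of 4 libraries. In both subunits all 4 LRP1 eKO libraries lay below all 4 WT libraries, and WT replicate 4 was the highest.

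Both subunits were lower in LRP1 eKO by similar shares. The 40S genes summed to 29203 ± 1498 in WT and 25628 ± 422 in LRP1 eKO, and the 60S genes to 38659 ± 1880 and 33922 ± 547 (SD, n = 4 each), 12.2% and 12.3% lower. The ratio of the 60S to the 40S sum was 1.324 ± 0.0058 in WT and 1.324 ± 0.0037 in LRP1 eKO. Of the 40S genes 21 of 30 fell, with a median log2 fold change of −0.18, and of the 60S genes 35 of 45, with a median of −0.17.

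**Figure D2:**
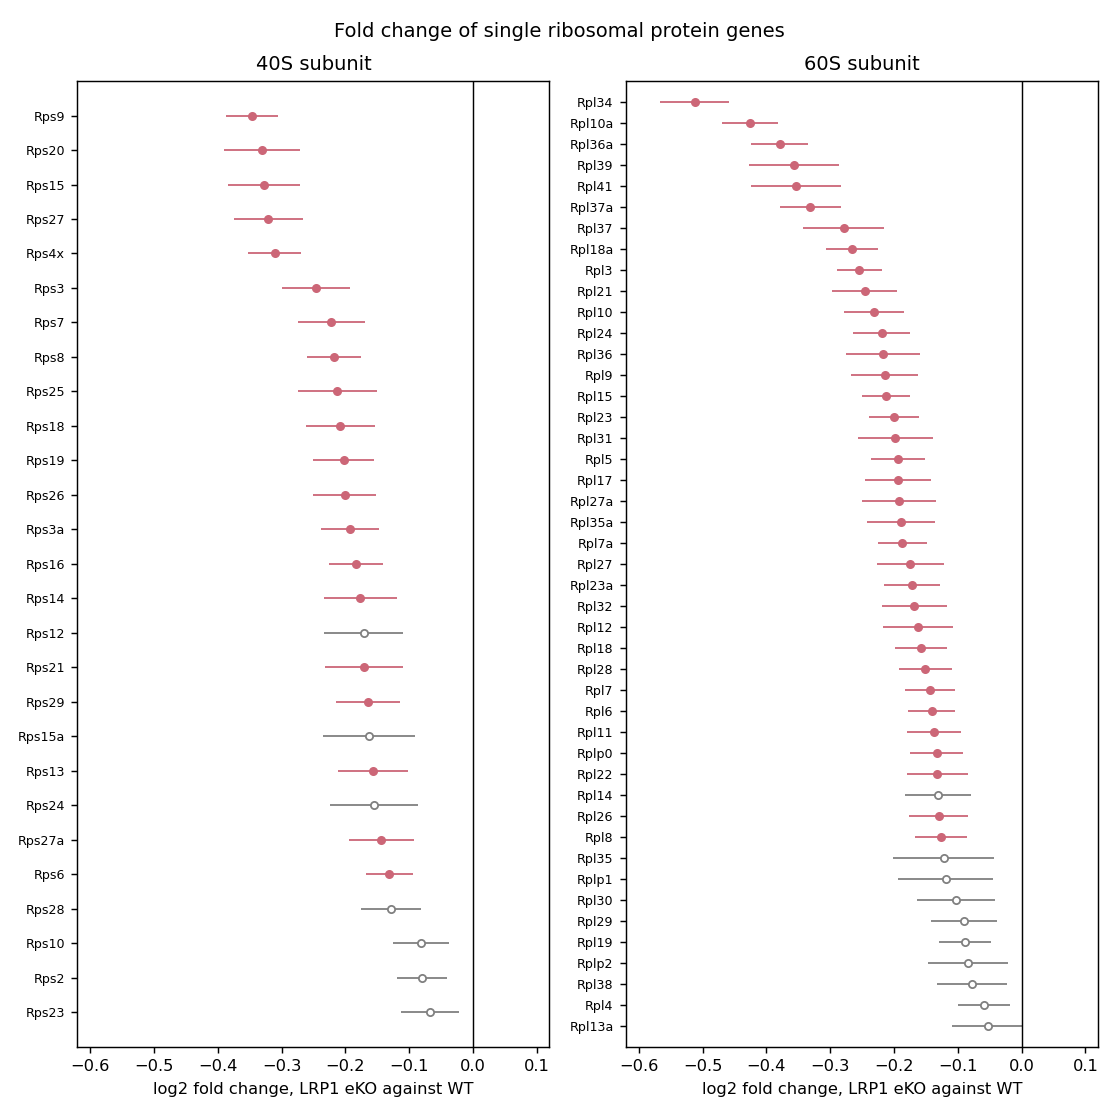
log2 fold change (LRP1 eKO against WT) of 72 of the 75 genes, split by subunit and ordered by size. Bars are the SE, filled points passed an adjusted p of 0.05 and open points did not. All 72 points lie below 0, from −0.51 for Rpl34 to −0.05 for Rpl13a.

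The largest decreases were in the 60S subunit. Rpl34 had signals of 989.2, 989.2, 1015 and 1127 in WT and 742.3, 740.0, 681.7 and 720.9 in LRP1 eKO. The log2 fold change was −0.51 (SE 0.054, adjusted p = 8.2e-05), and the LRP1 eKO mean was 70.01% of the WT mean. Rpl10a, a protein of the L1 stalk near the exit of tRNA from the ribosome, had signals of 749.8, 753.8, 713.1 and 784.6 in WT and 580.8, 550.5, 554.2 and 546.8 in LRP1 eKO. Its log2 fold change was −0.43 (SE 0.043, adjusted p = 6.6e-05), the smallest p of the 75 genes. In both genes the lowest WT library lay well above the highest LRP1 eKO library.

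Rpl36a had signals of 610.7, 595.5, 605.3 and 658.8 in WT and 474.3, 483.8, 455.5 and 483.8 in LRP1 eKO (log2 fold change −0.38, SE 0.045, adjusted p = 1.8e-04). Rpl39, a very short protein that lines the peptide exit tunnel, had signals of 597.7, 610.7, 703.3 and 728.9 in WT and 511.8, 519.4, 483.8 and 539.8 in LRP1 eKO (log2 fold change −0.36, SE 0.070, adjusted p = 0.0032). The WT libraries of Rpl39 were spread more widely than its LRP1 eKO libraries, and the groups did not overlap. Rpl41, the shortest ribosomal protein, averaged 1831 ± 165 in WT and 1430 ± 86.8 in LRP1 eKO (SD, n = 4 each), and its log2 fold change was −0.35 (adjusted p = 0.0034).

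In the 40S subunit Rps9, Rps20, Rps15, Rps27 and Rps4x had the largest decreases, with log2 fold changes from −0.35 to −0.31. Rps9, which helps to keep decoding accurate, had signals of 954.0, 954.0, 1006 and 1015 in WT and 794.0, 766.6, 753.8 and 773.7 in LRP1 eKO (log2 fold change −0.35, SE 0.041, adjusted p = 1.8e-04). Rps4x, the X-linked form of the protein eS4, had signals of 998.1, 1032, 1071 and 1071 in WT and 862.1, 823.6, 819.7 and 856.8 in LRP1 eKO (log2 fold change −0.31, SE 0.042, adjusted p = 4.1e-04). Neither gene overlapped between the groups.

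At the other end, Rpl13a, Rpl4, Rps23 and Rpl38 did not pass the test and overlapped between the groups. Rpl13a, known as the ribosomal protein that leaves the subunit in the interferon response of myeloid cells, had mean signals of 1367 ± 102 and 1315 ± 29.5 (SD, n = 4 each; adjusted p = 0.47). The log2 fold changes of Rpl4, Rps23 and Rpl38 were −0.06, −0.07 and −0.08, with adjusted p = 0.27, 0.25 and 0.28.

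**Figure D3:**
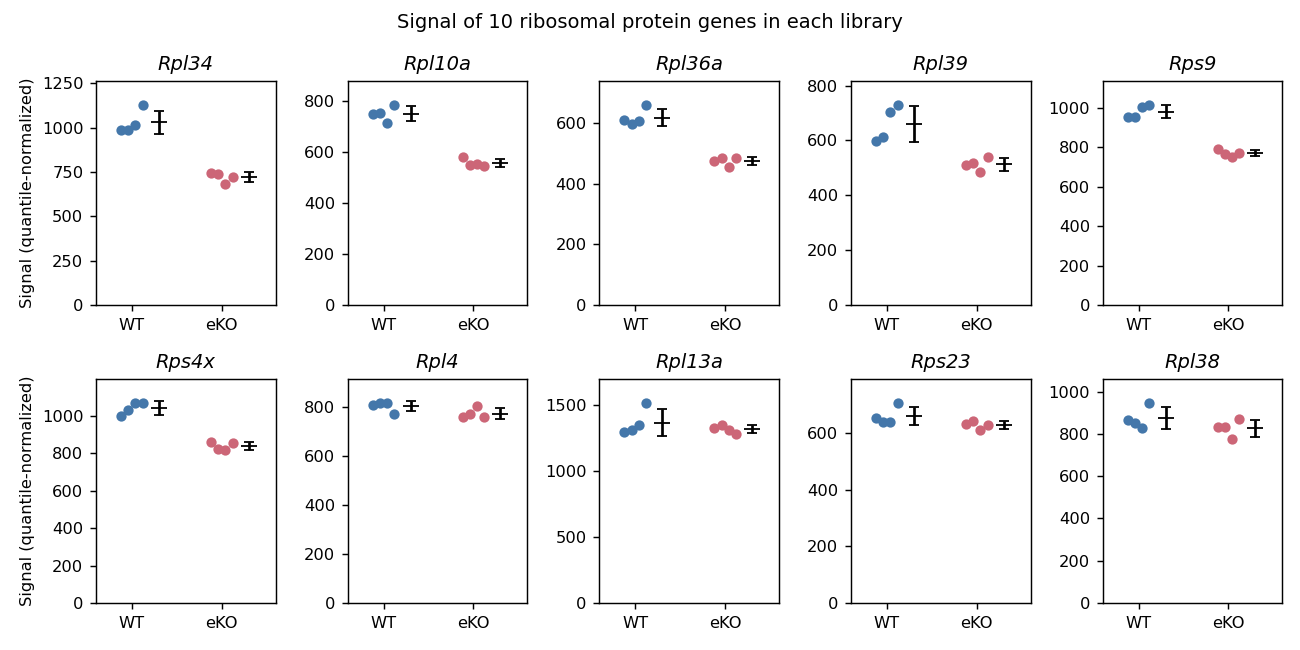
Quantile-normalized signal of 10 ribosomal protein genes in each of the 4 WT and 4 LRP1 eKO libraries, in the order of replicates 1 to 4, with the mean ± SD beside the points. The groups are apart in Rpl34, Rpl10a, Rpl36a, Rpl39, Rps9 and Rps4x and overlap in Rpl4, Rpl13a, Rps23 and Rpl38.

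The genes did not all fall by the same amount. Every library was centred on the mean log2 signal of the 75 genes. By this measure 11 of them decreased more than the family mean did (an adjusted limma p below 0.05). They were Rpl34, Rpl10a, Rpl36a, Rpl39, Rpl41, Rps9, Rps20, Rpl37a, Rps15, Rps27 and Rps4x. Relative to the mean change, the change of Rpl34 was −0.32 (SE 0.037) and that of Rpl10a −0.23 (SE 0.042) on the log2 scale. Another 6 genes decreased less than the family mean did, among them Rpl13a, Rps23, Rps10 and Rpl19. The relative values of Rpl13a and Rps23 were 0.14 (SE 0.038) and 0.12 (SE 0.036). The p-values were adjusted over all tested genes, whose median log2 fold change became 0.18 with this centring. Rpl19 thus passed at an adjusted p of 0.049 with an unadjusted limma p of 0.027. An adjustment over the 75 genes alone was not made, so the counts of 11 and 6 may be too high. This centring was chosen after the data were seen, and it measures unequal change within the family only.

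By role in the ribosome, the members moved as follows. Rpl5 and Rpl11, which with the 5S ribosomal RNA form the particle that binds MDM2 and stabilises p53, both fell, with log2 fold changes of −0.19 and −0.14 (adjusted p = 0.0056 and 0.026). The call of Rpl11 did not hold without WT replicate 3, LRP1 eKO replicate 1 or LRP1 eKO replicate 3 (adjusted p = 0.052, 0.065 and 0.066), nor with the trend on transcript length described below removed (log2 fold change −0.057, adjusted p = 0.20). Of the P stalk proteins, which recruit the elongation factors, Rplp0 fell (log2 fold change −0.13, adjusted p = 0.029), and Rplp1 and Rplp2 had values of −0.12 and −0.08 (adjusted p = 0.22 and 0.31). The call of Rplp0 did not hold without WT replicate 1 or 2 or without LRP1 eKO replicate 2, 3 or 4 (adjusted p from 0.064 to 0.081), nor with the length trend removed (log2 fold change −0.053, adjusted p = 0.37). Rplp1 was the most abundant of them, at 2191 ± 180 in WT and 2017 ± 165 in LRP1 eKO (SD, n = 4 each). Of 9 proteins in or around the peptide exit tunnel, 5 fell, with a median of −0.13.

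Rps6, the substrate of the S6 kinases, was 935.1 ± 16.4 in WT and 853.9 ± 14.1 in LRP1 eKO (SD, n = 4 each), and its log2 fold change was −0.13 (adjusted p = 0.019). With the length trend removed it was −0.051 (adjusted p = 0.31). Rps27a, which encodes ubiquitin fused to a 40S protein, fell by 0.14 on the log2 scale (adjusted p = 0.048). Its call held without WT replicate 1 and was lost when any 1 of the other 7 libraries was left out (adjusted p from 0.058 to 0.11), and the log2 fold change was −0.063 with the length trend removed (adjusted p = 0.24). At the entry of the mRNA channel, Rps3 fell by 0.25 (adjusted p = 0.0053), and Rps2 had a log2 fold change of −0.08 (adjusted p = 0.13). Of 4 proteins at the mRNA exit and platform 3 fell, and of 3 at the decoding site and head 1 fell, Rps15. Of 18 members that cause Diamond-Blackfan anaemia when mutated in people, 13 fell, with a median of −0.17, close to that of the whole family.

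Several members have a paralogue in the genome. Rpl3 fell (log2 fold change −0.25, adjusted p = 4.7e-04), while Rpl3l, its counterpart in striated muscle, had a signal of at most 0.051 in any library. Rpl10l was listed at 0 in all 8 libraries, and Rpl39l was at or below 0.752. Rpl22 had signals of 432.9, 419.4, 452.8 and 461.7 in WT and 408.0, 398.9, 382.2 and 422.9 in LRP1 eKO (log2 fold change −0.13, adjusted p = 0.0497). The highest LRP1 eKO library of Rpl22 was above the lowest WT library, and its call did not hold when WT replicate 1, 3 or 4 was left out, or one of LRP1 eKO replicates 1 to 3 (adjusted p from 0.072 to 0.14), nor with the length trend removed (log2 fold change −0.10, adjusted p = 0.090).

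Rpl22l1, the paralogue that can replace Rpl22 in the 60S subunit, had signals of 136.6, 122.8, 127.0 and 138.6 in WT and 78.6, 79.2, 81.7 and 91.4 in LRP1 eKO. Its log2 fold change of −0.66 (SE 0.061, adjusted p = 3.3e-05) was larger than that of any of the 75 genes. Rpl7l1 fell by 0.31 on the log2 scale (adjusted p = 0.0029) and Rpl7 by 0.14 (adjusted p = 0.017). The adjusted p of Rpl7 was 0.053 without LRP1 eKO replicate 3 and 0.051 without LRP1 eKO replicate 4, and with the length trend removed its log2 fold change was −0.064 (adjusted p = 0.21). Rps27l and Rpl36al had log2 fold changes of −0.17 and −0.18 (adjusted p = 0.059 and 0.068), against −0.32 for Rps27 and −0.38 for Rpl36a. Fold changes were not tested between paralogues.

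Ribosomal protein genes that the symbol rule leaves out were measured as well. Of 12 listed, 8 passed the filter on low signal, 5 of these fell and 0 rose. Gnb2l1, which encodes the 40S scaffold protein RACK1, fell by 0.23, Rpsa by 0.18 and Fau by 0.15 on the log2 scale (adjusted p = 0.0023, 0.0084 and 0.025).

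Other mRNAs known to carry a TOP motif were also measured. Of 19, 9 (47.4%) fell and 2 (10.5%) rose, with a median log2 fold change of −0.18. The background was 22.2% called lower and 19.0% called higher. Hnrnpa1, an RNA-binding protein, had signals of 213.0, 213.7, 207.5 and 202.1 in WT and 136.0, 141.8, 141.0 and 149.9 in LRP1 eKO (log2 fold change −0.55, SE 0.043, adjusted p = 1.0e-05). Naca, which binds nascent chains at the ribosome, fell by 0.35 and Eef1b2, which recharges elongation factor eEF1A, by 0.32 on the log2 scale (adjusted p = 8.2e-04 and 4.0e-04). Vim, the intermediate filament vimentin, and Pabpc1, the poly(A)-binding protein, rose by 0.32 and 0.31 (adjusted p = 0.0012 and 0.0058). Eef1a1 and Eef2, classic TOP mRNAs, had log2 fold changes of −0.21 and −0.01 and did not pass (adjusted p = 0.13 and 0.89). Eef1a1, Eef2, Pabpc1 and Fbl were named after their values were seen.

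The rest of the translation machinery did not move as a block. Of 35 initiation factors 10 fell and 10 rose, 28.6% each, with a median log2 fold change of −0.01. The background was 22.2% called lower and 19.0% called higher. Eif3b and the helicase Eif4a1 fell by 0.35 and 0.24 on the log2 scale, and Eif2s2 rose by 0.19 (adjusted p = 1.8e-04, 0.0021 and 0.0036). Of 11 elongation and termination factors 3 (27.3%) fell and 1 (9.09%) rose. The release factor Gspt1 fell by 0.37 and the recycling factor Abce1 rose by 0.20 on the log2 scale (adjusted p = 8.2e-04 and 0.026).

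Of 60 ribosome biogenesis genes, 7, or 11.7%, fell and 2 rose, a share below the background of 22.2% for lower calls, and their median log2 fold change was 0.01. Imp3, Rrp1 and Emg1, all assembly factors, fell by 0.40, 0.20 and 0.29 on the log2 scale (adjusted p = 9.2e-04, 0.0024 and 0.0031), and so did Fbl, the methyltransferase fibrillarin, by 0.21 (adjusted p = 0.012). In the RNA polymerase I machinery 3 of 14 genes fell and 0 rose, a share of 21.4%. Znrd1 and Polr1c are polymerase subunits and Ubtf is the factor that opens ribosomal DNA. Their log2 fold changes were −0.51, −0.25 and −0.16 (adjusted p = 4.1e-04, 0.021 and 0.013).

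**Figure D4:**
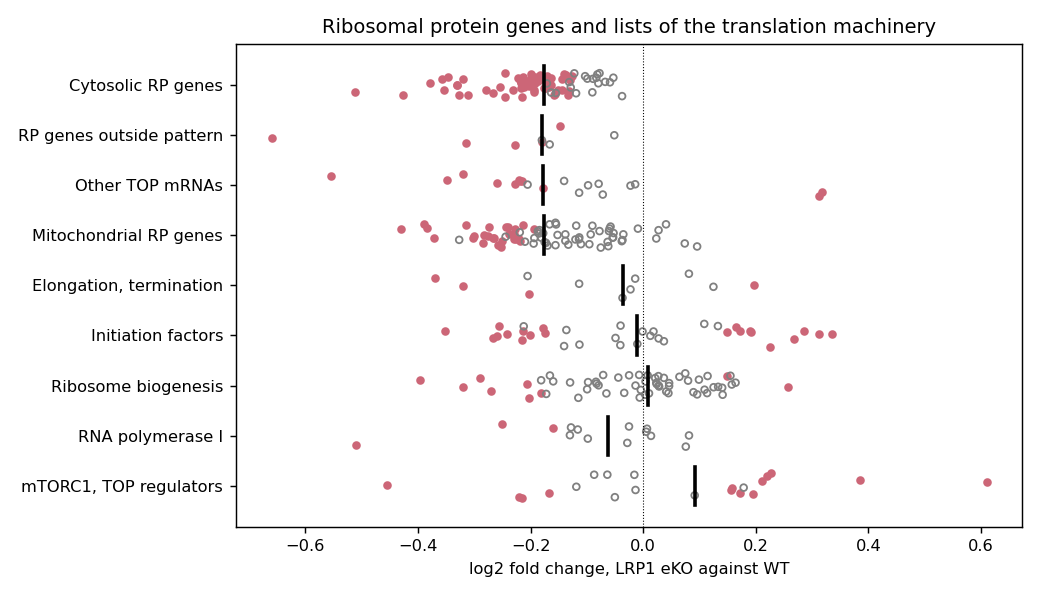
log2 fold change (LRP1 eKO against WT) of each tested gene in the family and in 8 lists of the translation machinery. Filled points passed an adjusted p of 0.05, open points did not, and the black bar is the median. Gene lists share a few genes. The medians were −0.18 for the cytosolic and the mitochondrial ribosomal protein genes and 0.01 for ribosome biogenesis.

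The regulators of ribosomal protein mRNAs moved in both directions. Of 21 tested genes of mTORC1 and TOP control, 9 (42.9%) rose and 4 (19.0%) fell, with a median log2 fold change of 0.09. The background over all tested genes was 19.0% called higher and 22.2% called lower. Myc had signals of 14.2, 15.5, 16.2 and 14.9 in WT and 23.2, 24.1, 24.9 and 22.6 in LRP1 eKO (log2 fold change 0.61, SE 0.054, adjusted p = 2.6e-05), and the related Mycn fell by 0.45 (adjusted p = 8.3e-04). Eif4ebp1, the translational repressor inactivated by mTORC1, rose from 92.9 ± 2.89 to 121.7 ± 7.49 (SD, n = 4 each; adjusted p = 3.6e-04). Larp1, which binds TOP mRNAs, and Rps6kb1, an S6 kinase, rose by 0.22 and 0.16 on the log2 scale (adjusted p = 0.034 and 0.038). The kinase Mtor itself had a log2 fold change of −0.06 (adjusted p = 0.60). These values are mRNA levels and do not measure the activity of the pathway.

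The mitochondrial ribosome is built from a separate set of nuclear genes. Of 76 tested mitochondrial ribosomal protein genes, chosen by symbol alone, 71 had a lower mean in LRP1 eKO. Of the 76 genes, 27, or 35.5%, fell and 0 rose, with a median log2 fold change of −0.18. A symbol does not show that the product is part of this ribosome. Mrpl34 and Mrps15 fell by 0.37 and 0.25 on the log2 scale (adjusted p = 0.0013 and 0.0035). The background over all tested genes was 22.2% called lower and 19.0% called higher. Outside the cytosolic family, 29.8% of genes with transcripts under 800 bases and 30.2% from 800 to 1200 bases were called lower. Values with a trend on transcript length removed are not given for this list. The median log2 fold change of the 76 genes was the same as that of the cytosolic family to 2 decimals. Their median SE was larger, 0.075 against 0.050.

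Transcript length moved with the result. By GENCODE M21, the median coding transcript of the 75 genes was 711.5 bases long, and 68 of them were under 1200 bases. Among genes outside the family, the median log2 fold change was −0.07 for transcripts under 800 bases and −0.09 from 800 to 1200 bases, and 29.8% and 30.2% of these genes were called lower. It was 0.03 from 2600 to 4000 bases and 0.12 from 4000 bases on, where 196 of 1952 genes were called lower. WT replicate 4 stood furthest from the LRP1 eKO libraries in this last class. The mean log2 signals there were 3.16, 3.18, 3.17 and 3.00 in WT replicates 1 to 4 and 3.23 to 3.26 in LRP1 eKO. The closest background for the family, 623 genes outside it with a mean signal of at least 50 and transcripts under 1200 bases, had a median of −0.07 with 33.9% called lower. After a trend of log2 signal on transcript length, fitted in each library, was taken out, 32 of the 75 genes fell, 0 rose and the median was −0.10, against 21.1% of all genes called lower. Rpl34, Rpl10a, Rpl36a, Rpl39, Rpl41, Rps9 and Rps4x still fell, while Rpl13a, Rpl4, Rps23 and Rpl38 had values from 0.001 to 0.03. Length here is the median over the annotated coding transcripts, and which of them were expressed was not tested. It was 3706 bases for Rps20 and 4920 for Rpl24. Their log2 fold changes went from −0.33 and −0.22 to −0.38 and −0.31 with the trend removed. The length fit was added after the data were seen.

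**Figure D5:**
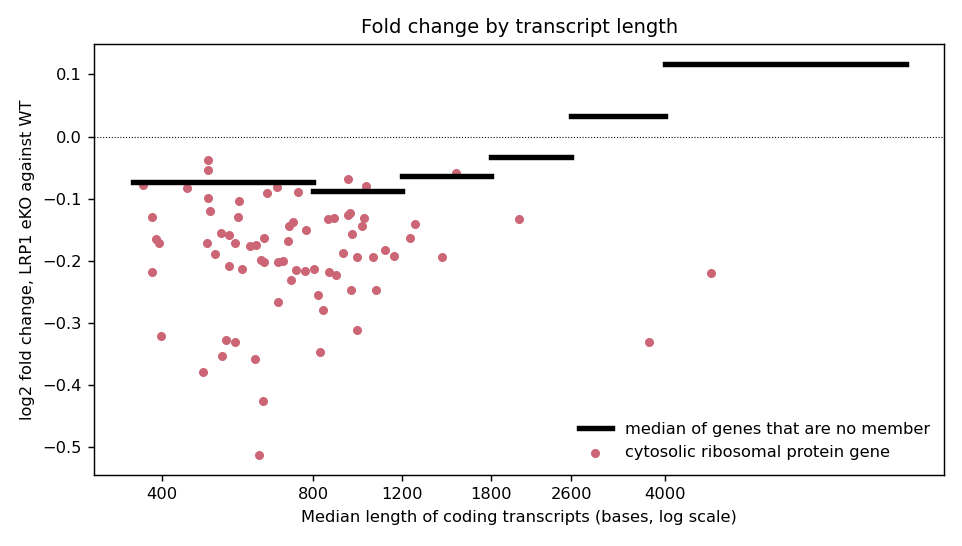
log2 fold change (LRP1 eKO against WT) against the median length of a gene's coding transcripts, on a log axis. Points are the 75 ribosomal protein genes, and black bars are the medians of tested genes outside the family in 6 length classes, from −0.07 under 800 bases to 0.12 from 4000 bases on. The first and last bars stand for classes with no lower and no upper limit.

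Other measures moved with the groups too, and their part in the result was not tested. The summed signal of 10 hepatocyte markers was 95.0 to 140.5 in WT and 34.8 to 45.5 in LRP1 eKO, and all 6 tested markers fell. That of 9 skeletal muscle markers was 47.8 to 74.98 and 14.6 to 15.8, and all 5 tested fell. The sum of 12 macrophage and Kupffer cell markers was 112 to 219 in WT and 52.3 to 722 in LRP1 eKO, with 1 of 8 tested higher. For 10 endothelial markers 4 of 8 tested rose, and for 8 markers of liver sinusoidal ECs 1 of 4, with sums of 7.84 to 11.7 and 8.38 to 33.0. For 10 stellate cell and fibroblast markers 2 of 7 tested fell, and for 5 erythroid markers the 1 tested fell, with sums of 24.6 to 46.2 and 14.6 to 24.7. No marker was at 0 in all libraries, and Clec4f, a Kupffer cell marker, was listed at 0 in every WT library.

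WT replicate 4 was the highest WT library for 67 of the 75 genes, by 0.10 on the log2 scale over the mean of its group. Without it, 53 genes fell, with a median log2 fold change of −0.14. Without LRP1 eKO replicate 2, the library with the lowest macrophage sum, 50 genes fell with a median of −0.18. The shares of all tested genes called lower in these fits are not given here.

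By chromosome, the 4 X-linked members, Rpl10, Rpl36a, Rpl39 and Rps4x, all fell, with a median log2 fold change of −0.33, against −0.17 for the 71 autosomal members, of which 52 fell. The 364 tested X-linked genes outside the family had a median of 0.01, with 23.6% called lower. The Y-linked genes Eif2s3y, Ddx3y and Kdm5d rose by 0.51, 0.50 and 0.21 on the log2 scale (adjusted p = 7.4e-05, 0.0047 and 0.021). Y-linked Uty had a log2 fold change of 0.23 and did not pass (adjusted p = 0.17). These Y-linked genes were named after their values were seen. Whether the groups differed in the sex of the animals was not tested.

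Ribosomal protein genes have many near-identical processed pseudogenes, and how the counting treated reads that match both is not given in the sources used here. In the GENCODE transcripts, 74 of the 75 genes shared at least 1 window of 50 bases with the transcript of another gene, with a median of 38.3% of windows and a highest share of 95.1% in Rpl35. Among 25 genes with over 50% of windows shared, 17 fell with a median log2 fold change of −0.17, and among the other 50 genes 39 fell with a median of −0.18. The table held 23 rows of ribosomal protein pseudogenes, all with a signal of at most 0.396.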

How the data were processed

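mRNA of cells labelled as liver ECs was sequenced in 4 WT and 4 LRP1 eKO libraries. Per the study's methods, reads were trimmed, aligned with STAR to mm10 and counted over GENCODE genes with featureCounts, whereas the submitters' processing notes name TopHat2 and Cufflinks. Which of these made the table is not given in the sources used here. The authors deposited a quantile-normalized signal per coding gene and library, whose unit before normalization is not stated. The signals are not counts, so depth is unknown and no counting error can be given. Heart and lung libraries were not analysed here.

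Libraries were grouped by their titles. Genes that reached a signal of 1 in 4 or more of the 8 libraries (11391 genes) were kept, and log2(signal + 1) was fitted with limma 3.58.1 (trended moderation, genotype as the term, R 4.3.3). Calls used a Benjamini-Hochberg adjusted p of 0.05 over these genes. Fold changes on this scale understate changes of low genes. Single values were also given an exact permutation test over the 70 assignments. The fit was tested on simulated data. Alternatives covered the pseudocount, the filter, the moderation, the centring, a replicate block and leaving out each library.

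Transcript lengths and shared windows were taken from GENCODE M21 and start regions from RefSeq. Named genes were the 5 family members of smallest p, the 5 of largest decrease and the 5 at the other end, those with a paralogue, and in each related list the 3 genes of smallest p with Myc, Mtor, Larp1, Eif4ebp1, Rps6kb1 and Ubtf. The members, lists and tests were chosen with earlier results of these data known. A few genes that these rules would name are not reported here.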

Additional observations from a re-analysis of the deposited data

Results flagged for a closer look

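In 122 groups of 4 libraries, from 61 measures given above or examined with them, 8 groups held 1 outlying library by Dixon's ratio (the gap to the nearest library over the range of the group). Chance gives about 1 in 20 groups, or 6.1 here. None of the 16 ribosomal protein genes examined singly and none of their sums was among the 8. WT replicate 4 was the outlying library, on the high side, for Rps27l (ratio 0.884), Gnb2l1 (0.883), Polr1c (0.963), Mrpl34 (0.968) and the summed skeletal muscle markers (0.909). The other 3 were LRP1 eKO replicate 1 for Rpl7l1 (0.868), replicate 4 for Eif2s2 (0.868) and replicate 2 for Mycn (0.929), each on the high side.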

How the results depend on the processing

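Of the 75 genes, 40 to 58 fell and 0 rose in the planned fits that kept all libraries. When 1 library was left out, 38 to 54 fell (lowest without LRP1 eKO replicate 3). With a 2-fold change also asked for, 0 passed. The main fit called 22.2% of all tested genes lower, and the shares in these alternatives are not given here. The median log2 fold change ran from −0.19 to −0.14 when 1 library was left out, the latter without WT replicate 4. In 35 genes the call held in every one of 19 alternatives, 15 were called in none, and 74 had a lower mean in all of them. Of 16 genes followed singly, Rpl22 and Rpl7 were the ones that lost their call under some alternatives.

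The replicate numbers are shared between groups, but libraries of the same number did not deviate together (correlations of −0.086, −0.13, 0.18 and 0.038), so the numbers were not read as pairs. With a replicate block 40 genes fell, and Rpl7, Rpl11, Rpl22, Rplp0, Rps6 and Rps27a were among those that lost their call.

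The following fits were added after the data were seen. Centred on the mean of the family, which sets its average to 0, 11 genes were lower, 6 were higher and the median was 0.015. With the length trend removed 32 fell, the median was −0.10, and the log2 fold changes of Rpl13a, Rpl38, Rpl4 and Rps23 were 0.027, 0.0011, 0.0031 and 0.012. The cause of the difference was not tested. Read depth, which sets the precision of low signals, is unknown. In the range of the family, neighbouring signals in 1 library stood a median of 0.60% apart, and changes smaller than the local step could not be resolved. The steps were wider for the most abundant genes. Rplp1 took only the signals 1891, 2050, 2237 and 2427 over all libraries.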
